A study of Mus musculus with 6 samples.

Results

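Dmc1 is the gene of a recombinase of meiosis, and it was examined here as 1 of 55353 genes listed, through all 5 of its annotated isoforms of 142647 isoforms listed. The libraries are rRNA-depleted, stranded total RNA of whole testes of mice at postnatal day 14, from 3 Rnu11 cKO animals, in which Rnu11 was conditionally deleted (mutants in what follows), and 3 control animals. The labels give neither the Cre line, nor the cells in which Rnu11 was deleted, nor the alleles that the controls carry. Dmc1 was taken by its symbol and its isoforms by their transcript identifiers. It was chosen by its isoform shares in these same mutant and control libraries, so its own values are a description with no test. All 5 isoforms had a row in each library. The values are in TPM, a unit of transcript abundance that allows for transcript length. It does not keep the number of reads, and the depth of each library is therefore unknown. Each library was taken as 1 animal, and p-values measure the spread between these libraries.

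DMC1 assembles on the single-stranded DNA that flanks the programmed double-strand breaks of meiosis, and the resulting filament finds and invades the homologous chromosome. It is made by spermatocytes of early meiotic prophase, and male mice without it stop in prophase with unpaired chromosomes. Rnu11 encodes U11, the small nuclear RNA that recognises the 5′ splice site of the rare minor introns, while its partner U12 pairs with their branch site, whose best-known form is TCCTTAAC.

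The Dmc1 gene (ENSMUSG00000022429.11) lies on the minus strand of chromosome 15 on GRCm38. Its main annotated transcript, ENSMUST00000023065, called the full-length isoform here, runs from 79561497 to 79605108 with 14 exons, is 2219 nt long and encodes 340 codons. ENSMUST00000229408, the exon-skipping isoform, is also annotated as protein coding and lacks exons 8 and 9. These are 73 and 92 nt long, together 165 nt or 55 codons, so the reading frame is kept and 285 codons remain. A Walker A pattern, the ATP-binding loop of this protein family, was found by its consensus at codons 126 to 133. These codons lie in exons 6 and 7, which both isoforms have. No other motif was searched for, in the 55 codons left out or elsewhere. Whether the shorter product works was therefore not shown. ENSMUST00000229472, the intron-start isoform, is annotated as a retained-intron transcript of 751 nt with no coding sequence. It starts inside intron 8, reads 136 nt of it straight into exon 9, and skips exon 11. Exon 11 is 115 nt long, which is not a multiple of 3. ENSMUST00000230011, annotated as a target of nonsense-mediated decay, skips exons 6 to 9 and 11 and has 109 codons, and ENSMUST00000230121, a noncoding transcript of 457 nt, starts in intron 9.

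**Figure D1:**
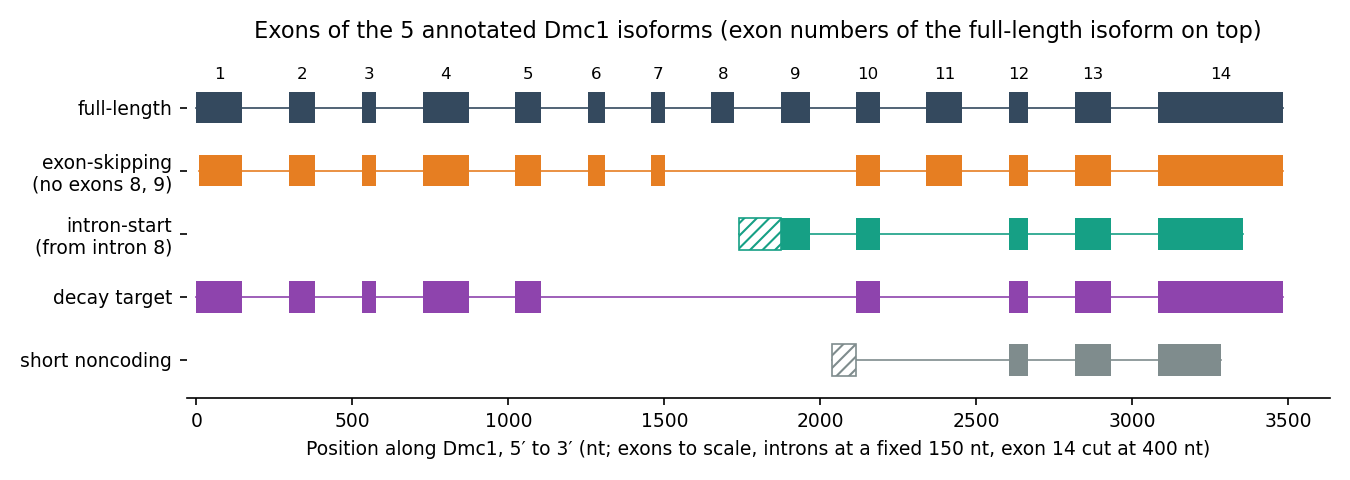
Exons of the 5 annotated Dmc1 isoforms drawn 5′ to 3′, with exons to scale in nt, introns at a fixed width and exon 14 shortened; hatched blocks are intron bases held by the transcript. The exon-skipping isoform lacks exons 8 and 9, and the intron-start isoform starts with 136 nt of intron 8 and lacks exon 11.

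The stretches that tell the isoforms apart are shown 5′ to 3′, read from GENCODE M21 transcripts on GRCm38, minus strand. The first pair covers exons 7 to 10 (chr15:79585098-79591646), with exons 8 and 9 in capitals, to show the 165 nt that the exon-skipping isoform leaves out.
Full-length isoform: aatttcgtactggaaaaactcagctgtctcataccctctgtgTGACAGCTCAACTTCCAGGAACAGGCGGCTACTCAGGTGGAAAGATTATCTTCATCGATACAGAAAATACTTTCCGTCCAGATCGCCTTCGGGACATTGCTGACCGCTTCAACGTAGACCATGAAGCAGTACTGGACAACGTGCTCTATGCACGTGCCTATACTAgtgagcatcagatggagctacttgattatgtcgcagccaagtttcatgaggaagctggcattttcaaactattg
Exon-skipping isoform: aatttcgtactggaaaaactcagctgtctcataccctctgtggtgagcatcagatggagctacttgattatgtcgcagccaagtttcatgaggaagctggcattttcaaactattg
The second pair covers exon 11, in capitals, with 20 bases on either side (chr15:79584360-79585117), and the exon 10 to exon 12 junction that takes its place in the intron-start isoform.
Full-length isoform: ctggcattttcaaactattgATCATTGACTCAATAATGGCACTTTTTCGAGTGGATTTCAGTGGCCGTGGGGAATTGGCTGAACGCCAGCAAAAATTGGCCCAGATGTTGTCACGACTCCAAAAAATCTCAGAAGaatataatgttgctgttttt
Intron-start isoform: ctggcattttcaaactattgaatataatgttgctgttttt

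Intron 8 (chr15:79585761-79588750, 2990 nt) separates exons 8 and 9. Only the full-length isoform has the splice that removes it, while the exon-skipping isoform passes over it together with both flanking exons and the intron-start isoform holds its last 136 nt. Those last bases contain the 8 letters TCCTTAAC, capitals here, with the last A of TCCTTAA 16 nt from the end of the intron (chr15:79585761-79585820).
Intron 8, last 60 nt: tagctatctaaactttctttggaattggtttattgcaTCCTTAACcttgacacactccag
The other end of the intron lies in no annotated transcript, so its 5′ splice site was not read. The last 40 nt lie in an annotated transcript for 33187 introns of at least 60 nt in protein-coding genes, which is 13.25% of such introns, and 61 of them had TCCTTAAC with that A 8 to 30 nt from the end (0.184%). The reverse complement, GTTAAGGA, was found in the last 40 nt of 4 introns (0.0121%) and not in Dmc1 intron 8. The other Dmc1 intron end that was read, the one before exon 10, did not hold TCCTTAAC. A match of letters is a description and does not show that the site is used.

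The deleted gene, Rnu11, stood at 196, 393 and 203.3 TPM in mutants, against 614, 576 and 550.3 TPM in controls, with no overlap. Its log2 difference was −1.21, and it was not itself called over all genes (limma adjusted p = 0.29). Between 30113 and 34510 genes per library were above 0. Markers of leptotene and zygotene spermatocytes, the cells that make Dmc1, summed to 817.8 to 1027 TPM in mutants and 1121 to 1393 TPM in controls over 36 genes, all above 0 in every library. Sertoli cell markers summed to 2053 to 2749 TPM in mutants and 1555 to 1768 TPM in controls over 13 genes, and Leydig cell markers to 273.5 to 423.5 TPM in mutants and 163.8 to 277.9 TPM in controls over 8 genes. The 6 spermatid markers summed to 1.14 to 1.67 TPM in mutants and 1.47 to 1.56 TPM in controls, with Prm1, Prm2 and Tnp2 listed at 0 in some libraries. Pachytene markers summed to 102 to 114 TPM in mutants and 102 to 174 TPM in controls over 11 genes, with overlap. Control replicate 2 stood apart from the other controls, with 102 TPM of pachytene markers against 174 and 169 TPM. It also had 278 TPM of Leydig markers against 164 and 177 TPM. Among mutants, replicate 2 had the highest Rnu11 level and the highest Sertoli and Leydig sums (2749 and 423.5 TPM). It also had the lowest leptotene and zygotene sum (817.8 TPM).

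The level of the whole gene was lower in mutants. Dmc1 stood at 22.3, 17.99 and 24.7 TPM in mutants and 26.2, 26.7 and 28.0 TPM in controls. The groups did not overlap, which was true in this direction of 5.77% of the 17959 genes tested. The means were 21.6 ± 3.38 TPM in mutants and 27.0 ± 0.93 TPM in controls (SD, n = 3 each), a log2 difference of −0.32 (SE 0.12) on the log2(TPM + 1) scale, −0.32 again without control replicate 2, and −0.20 without mutant replicate 2, the lowest library. In bulk tissue, fewer spermatocytes and less Dmc1 RNA per spermatocyte cannot be told apart. Set against the mean of the 36 leptotene and zygotene markers in the same library, the log2 level of Dmc1 was 0.54, 0.39 and 0.49 above it in mutants and 0.29, 0.49 and 0.31 above it in controls. On this relative scale the groups overlapped and the mean difference was 0.11.

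Of the isoforms, the full-length one was lower in mutants. This isoform, which encodes the complete protein, stood at 8.95, 7.49 and 11.3 TPM in mutants and 19.6, 18.9 and 19.4 TPM in controls. Every mutant library was well below the controls, which lay within 1 TPM of each other. The means were 9.26 ± 1.94 TPM in mutants and 19.3 ± 0.36 TPM in controls (SD, n = 3 each), a level 2.09 times higher in controls, with a log2 difference of −1.004 on the log2(TPM + 1) scale. As whole genes, the 36 leptotene and zygotene markers had a median log2 difference of −0.42 on the same scale. The median of all genes tested was 0.09, and the value of Dmc1 as a whole gene was −0.32.

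The exon-skipping and intron-start isoforms were higher in mutants although the gene was lower. The exon-skipping isoform, without exons 8 and 9, stood at 3.77, 3.38 and 3.79 TPM in mutants and 1.51, 1.31 and 1.62 TPM in controls. Its means were 3.65 ± 0.23 TPM in mutants and 1.48 ± 0.16 TPM in controls (SD, n = 3 each), 2.46 times higher in mutants. The intron-start isoform, which starts in intron 8, stood at 9.49, 7.12 and 9.55 TPM in mutants and 5.06, 6.39 and 6.95 TPM in controls. Its groups did not overlap either, but the lowest mutant and the highest control were close. Its means were 8.72 ± 1.39 TPM in mutants and 6.13 ± 0.97 TPM in controls (SD, n = 3 each), 1.42 times higher in mutants. Of 43986 isoforms averaging 1 TPM or more, 5.18% were lower and 11.6% were higher in mutants with no overlap of the groups, and Dmc1 has 1 of the first kind and 2 of the second.

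The remaining isoforms were close to 0. The annotated decay target was listed at 0.047 TPM in mutant replicate 1 and at 0.094 TPM in control replicate 2, and at 0 in the other libraries. The short noncoding isoform was listed at 0 in all 6 libraries.

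**Figure D2:**
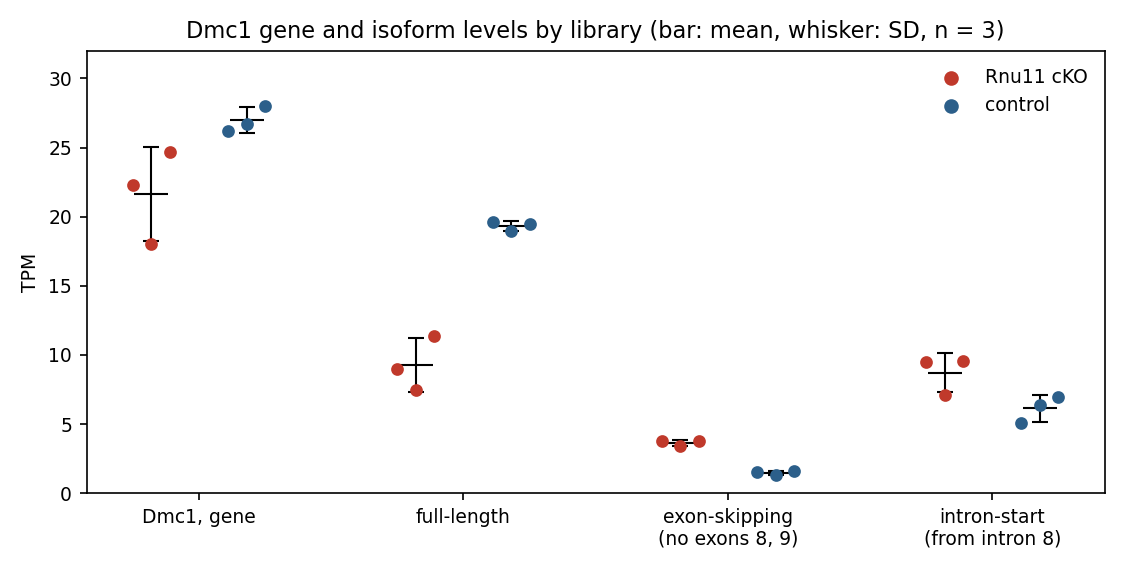
Levels in TPM of the Dmc1 gene and its 3 main isoforms, each point 1 library, with the mean and SD of 3 libraries a group. The full-length isoform averaged 9.26 TPM in mutants and 19.3 TPM in controls, while the exon-skipping isoform and the intron-start isoform were higher in mutants with no overlap.

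Shares of the summed isoform TPM were set side by side. The full-length isoform made up 40.2%, 41.6% and 45.9% in mutants and 74.95%, 70.9% and 69.4% in controls. The means were 42.6% ± 2.98 in mutants and 71.7% ± 2.88 in controls (SD, n = 3 each), a difference of −29.1 percentage points, and of −29.6 points without control replicate 2. The exon-skipping isoform made up 16.9%, 18.8% and 15.4% in mutants and 5.75%, 4.91% and 5.80% in controls. Its mean share was 17.0% ± 1.73 in mutants and 5.48% ± 0.50 in controls (SD, n = 3 each), 3.10 times higher in mutants. The intron-start isoform made up 42.7%, 39.5% and 38.7% in mutants and 19.3%, 23.9% and 24.8% in controls, with means of 40.3% ± 2.08 in mutants and 22.7% ± 2.95 in controls (SD, n = 3 each). Without control replicate 2 the differences were 11.3 points for the exon-skipping isoform and 18.3 points for the intron-start isoform. In all 3 shares the groups were apart by more than the range within either group. Shares without overlap in either direction were 11.7% of the 35637 isoform shares that could be tested, and 0.0112% were called by limma (4 shares). Leaving out any 1 library kept the differences between −30.8 and −27.5 points for the full-length isoform, 10.7 and 12.4 points for the exon-skipping isoform, and 15.96 and 18.7 points for the intron-start isoform. The denominator moved some of them further. The difference of the exon-skipping isoform was 21.5 points among isoforms with a coding sequence, against 11.5 points among all isoforms. The difference of the intron-start isoform was 10.1 points when shares were weighted by transcript length, against 17.6 points without the weights.

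**Figure D3:**
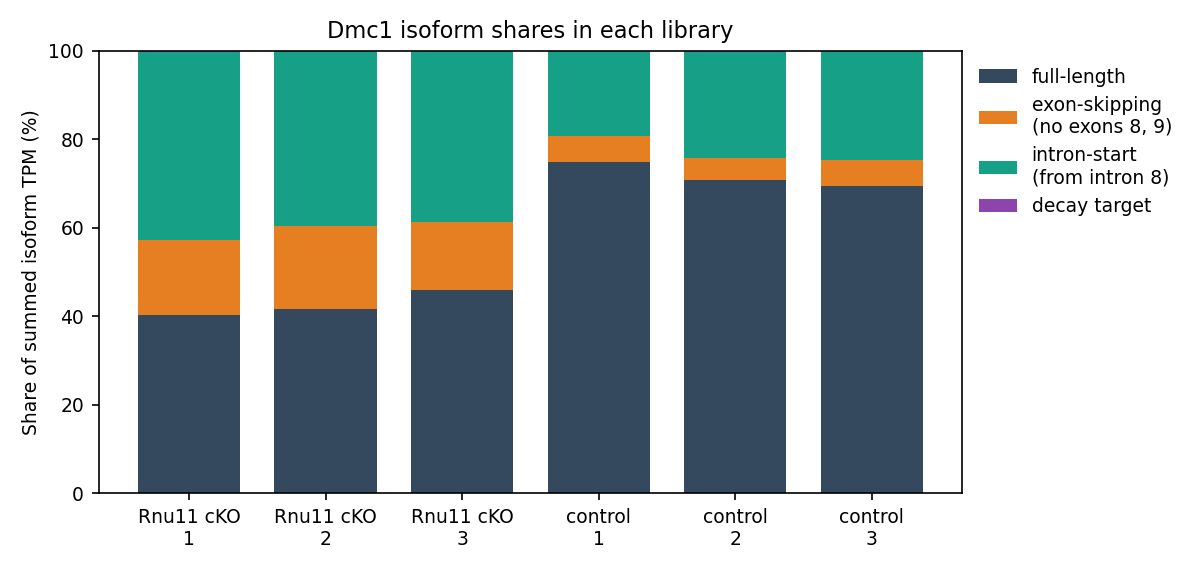
Share in percent of the summed Dmc1 isoform TPM for each isoform, 1 stacked bar per library with mutants on the left. The full-length isoform covers 40.2% to 45.9% of the bar in mutants and 69.4% to 74.95% in controls.

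The order of the isoforms also differed. In controls the full-length isoform was the highest, the intron-start isoform the next and the exon-skipping isoform the third, with no overlap between neighbours. In mutants the full-length isoform, at 7.49 to 11.3 TPM, and the intron-start isoform, at 7.12 to 9.55 TPM, overlapped, and the exon-skipping isoform was below both. The TPM of the full-length isoform over that of the intron-start isoform was 1.06 ± 0.12 in mutants and 3.22 ± 0.58 in controls (SD, n = 3 each). Over that of the exon-skipping isoform it was 2.53 ± 0.41 in mutants and 13.2 ± 1.24 in controls (SD, n = 3 each). The ratio of the intron-start to the exon-skipping isoform was 2.52, 2.10 and 2.52 in mutants and 3.36, 4.87 and 4.28 in controls, lower in mutants with no overlap.

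The isoforms can also be read by the exons they hold. Among isoforms that either join exon 8 to exon 9 or skip both, the joined form made up 70.1%, 68.9% and 74.95% in mutants and 92.9%, 93.1% and 92.3% in controls. The control libraries agreed to within 1 percentage point, and the highest mutant was far below them. Isoforms with exon 11 made up 59.6% ± 2.20 of the TPM in mutants and 77.2% ± 3.03 in controls (SD, n = 3 each). The isoforms without exon 11 are the intron-start isoform, the decay target and the short noncoding one, of which the last 2 were under 0.1 TPM. Because the intron-start isoform is also the only isoform with bases of intron 8, a transcript that starts there and an unspliced intron 8 in longer RNA cannot be told apart in these values.

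In the authors' deposited table the log2 fold change of mutants over controls, in the column named confident, was −1.08 for the full-length isoform, 1.26 for the exon-skipping isoform, 0.40 for the intron-start isoform and −0.24 for the gene.

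Intron ends with the same 8 letters were looked at in other genes, with earlier results of these data known. At each intron end, the TPM of isoforms that splice the intron was set against the TPM of isoforms that read through its 3′ end into the next exon. An end was counted once for each annotated intron that it closes. The same stretch of TCCTTAAC can therefore be counted more than once, and the counts below are of introns. For Dmc1 intron 8 these are the full-length isoform and the intron-start isoform, and the log2 ratio was −0.08, 0.07 and 0.25 in mutants and 1.94, 1.55 and 1.47 in controls, a difference of −1.58. Of 41 other introns with TCCTTAAC at the end, in 33 genes, 30 had a lower ratio in mutants (73.2%). Their median log2 difference was −0.25. Of 18454 introns without it, 45.6% had a lower ratio, with a median of 0.03. The groups did not overlap in 10 of the 41 with the lower ratio in mutants, against 5.29% of all 18496 ends, and in 4 with the higher ratio, against 6.79% of ends without the letters. Of the 41, 8 were lower at an unadjusted p under 0.05, against 2.72%. None of the 41 was called by limma after adjustment over all ends (0.0216% of ends were called), and 2 of the 41 were higher at an unadjusted p under 0.05, against 3.03% of all ends, 1 each in Arpc5l (1.70) and Msantd1 (1.97). Of the 41, 2 had a more negative difference than Dmc1 intron 8, in Ssr2 (−3.002) and Ubl5 (−1.60). These genes were named after their values were seen. Another Arpc5l intron was lower, at −0.91, and whether it has the same 3′ end is not given here. Introns of 1 gene share isoforms, so these ends are not independent of each other.

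**Figure D4:**
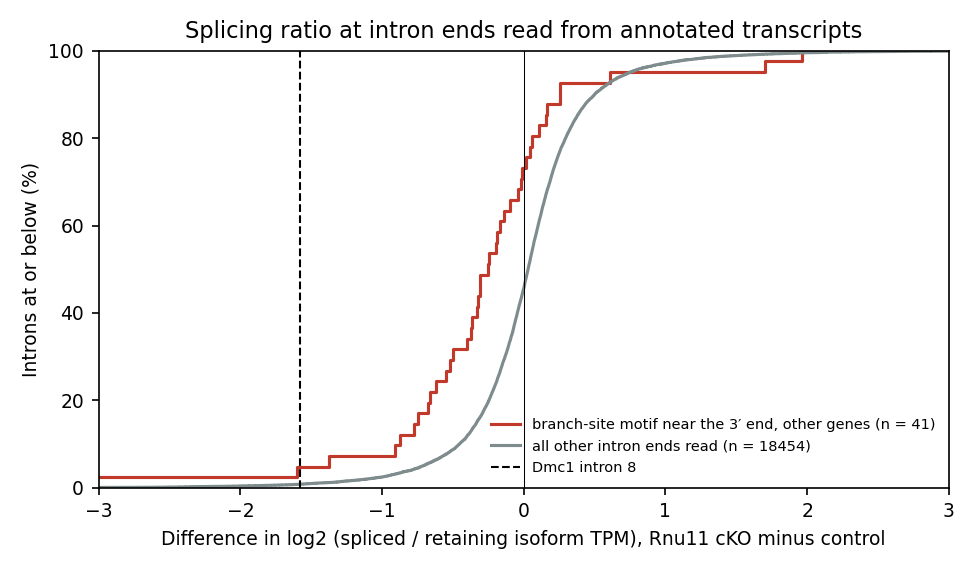
Cumulative share of introns, in percent, at or below a difference in log2 TPM ratio of splicing to reading-through isoforms (mutants minus controls). The curves are 41 introns of other genes with the letters TCCTTAAC at the end (labelled branch-site motif) and 18454 without them. Introns that share a 3′ end are counted separately. Isoforms labelled retaining read through the 3′ end of the intron into the next exon. They may start inside the intron, as that of Dmc1 does. The dashed line marks Dmc1 intron 8 at −1.58, and the curve with the letters lies mostly to the left.

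Other genes of strand exchange give the setting in which Dmc1 acts. A list of 42 genes was used, all listed and all averaging 1 TPM or more. None was called by limma over all genes (0.0278% of genes were called), while 11 were lower and 1 was higher at an unadjusted p under 0.05, against 3.98% lower and 12.1% higher of all genes. The groups did not overlap in 14 genes that were lower in mutants, against 5.77% of all genes, and in 2 that were higher, against 14.5%. These 2 are Fbh1 and Sem1, and Sem1, named after its values were seen, is also the 1 gene higher at an unadjusted p under 0.05 (log2 difference 0.30, limma adjusted p = 0.29). Of the 36 leptotene and zygotene markers, 25 were lower at an unadjusted p under 0.05 (69.4%). The groups did not overlap in 22 of these markers, lower in mutants (61.1%), and 34 had a negative difference. For the 42 strand exchange genes the median log2 difference was −0.13 with 31 lower, while 6034 of the 17959 genes tested were lower. With median-ratio scaling 36 of the 42 were lower with a median of −0.24. With scaling to protein-coding genes 36 of the 42 were lower with a median of −0.27. These scalings moved the median of all genes by −0.09 and −0.12. The count of 11 became 7 without mutant replicate 2 or without control replicate 3. The lower leptotene and zygotene marker sums, the higher Sertoli sums and the mostly higher, overlapping Leydig sums given above go with these values. The part of these sums in the values was not tested.

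Among the genes listed as recombinase and cofactors, 8 of 9 were lower. The HOP2 and MND1 proteins, which together stimulate strand invasion by DMC1, are encoded by Psmc3ip and Mnd1. Psmc3ip stood at 9.34 ± 0.67 TPM in mutants and 12.2 ± 3.30 TPM in controls (SD, n = 3 each; limma adjusted p = 0.40). Mnd1 stood at 3.99 ± 1.09 TPM in mutants and 5.91 ± 0.79 TPM in controls (SD, n = 3 each; limma adjusted p = 0.29). The groups overlapped for both. Rad51ap2 stood at 3.99, 3.76 and 4.42 TPM in mutants and 7.04, 5.37 and 6.27 TPM in controls (log2 difference −0.51, limma adjusted p = 0.29). Rad54b, a translocase of the Rad54 family, stood at 7.13, 7.72 and 7.57 TPM in mutants and 11.8, 8.90 and 12.1 TPM in controls (log2 difference −0.48, limma adjusted p = 0.29). Neither gene overlapped between the groups, and these 2 and Mnd1 had the smallest p-values among the 9.

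Among genes that load recombinases or control the filament, 13 of 16 were lower. Fignl1, whose product takes recombinase filaments off DNA, stood at 14.4, 14.8 and 15.2 TPM in mutants and 20.9, 19.01 and 23.3 TPM in controls, with a log2 difference of −0.48 (SE 0.10, limma adjusted p = 0.29). Bard1, the partner of BRCA1, and Rad51c had log2 differences of −0.40 and −0.39 with no overlap (limma adjusted p = 0.29 for both). Hsf2bp, which brings BRCA2 to meiotic breaks, stood at 9.74, 9.30 and 11.03 TPM in mutants and 14.5, 11.5 and 15.5 TPM in controls (limma adjusted p = 0.29). Brca2, which loads the recombinases, stood at 23.8 ± 1.17 TPM in mutants and 24.7 ± 0.53 TPM in controls (SD, n = 3 each; limma adjusted p = 0.77), with overlapping groups.

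Of the 5 genes for single-strand binding proteins, the meiosis-specific pair had the largest differences. Meiob stood at 8.18, 9.27 and 11.3 TPM in mutants and 19.98, 11.9 and 15.9 TPM in controls (log2 difference −0.66, limma adjusted p = 0.29). Its partner Spata22 stood at 7.05 ± 1.19 TPM in mutants and 11.2 ± 2.55 TPM in controls (SD, n = 3 each; log2 difference −0.59, limma adjusted p = 0.29), and control replicate 2 had the lowest control value of both genes. Rpa2, a subunit of the general single-strand binding protein RPA, had a log2 difference of −0.19 (limma adjusted p = 0.33). Among the 12 remaining genes, for end processing and other repair steps, 7 were lower, and Fbh1, Mcm8 and BC030867 had the smallest p-values, with log2 differences of 0.21, −0.17 and −0.23 (limma adjusted p = 0.32, 0.35 and 0.36).

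**Figure D5:**
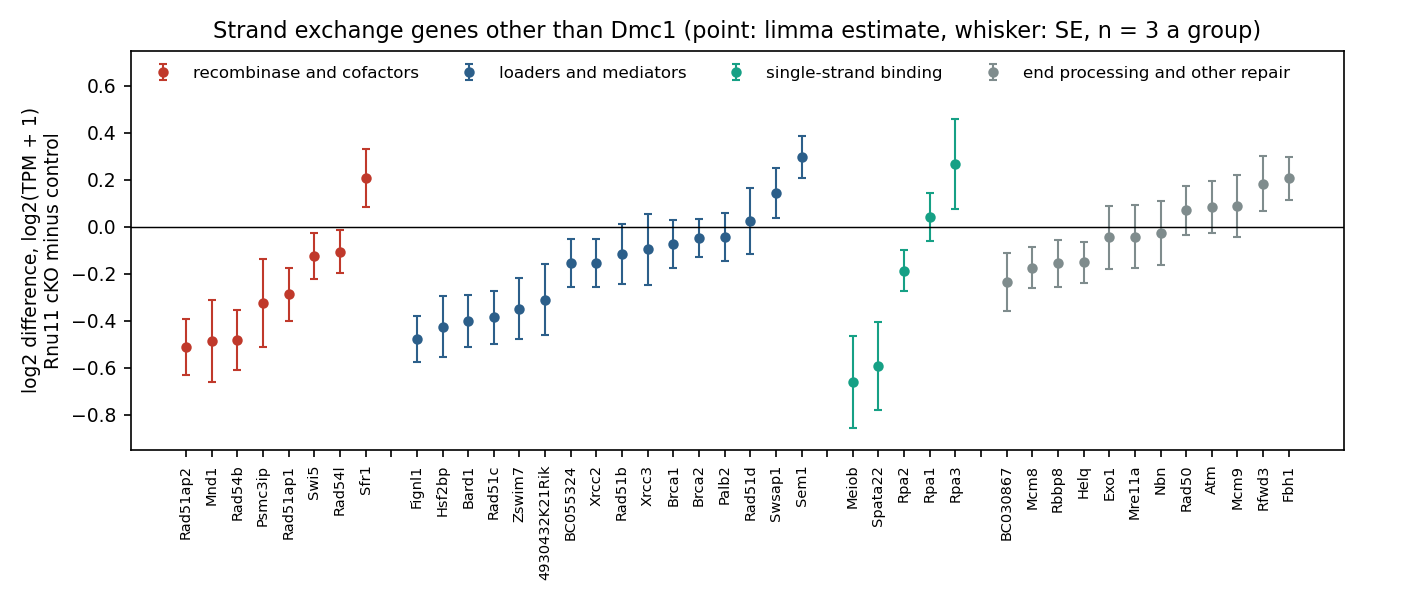
Log2 difference on the log2(TPM + 1) scale, mutants minus controls, for strand exchange genes in 4 roles (1 listed gene is not drawn), with the limma estimate as a point and its SE as a whisker (n = 3 a group). Meiob, Spata22 and Rad51ap2 are the most negative, at −0.66, −0.59 and −0.51, and none passed the adjusted threshold.

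Isoform shares of these genes passed a threshold about as often as those of all genes. Of 115 shares in 31 of the genes, none was called by limma, 7 were at an unadjusted p under 0.05 (6.09%, against 5.81% of all shares) and 12 were without overlap (10.4%, against 11.7%). The 3 with the smallest p-values were in BC055324, Rad54l and Rad54b. The noncoding BC055324 isoform ENSMUST00000162949 made up 29.6% ± 4.27 of its gene in mutants and 17.5% ± 2.26 in controls (SD, n = 3 each; limma adjusted p = 0.79). The noncoding Rad54l isoform ENSMUST00000143089 made up 4.56% ± 0.48 in mutants and 7.42% ± 0.74 in controls, and the coding Rad54b isoform ENSMUST00000108306 made up 18.2% ± 3.93 in mutants and 11.2% ± 0.91 in controls (SD, n = 3 each; limma adjusted p = 0.82 and 0.85).

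The genes whose level over the 6 libraries was most like that of Dmc1, by Pearson's r of log2(TPM + 1) among 10824 other genes averaging 5 TPM or more, were H2ac15 (r = 0.996), Btbd10 (0.992), Gm33952 (0.989), Fbxo47 (0.987) and Terb1 (0.986). Terb1, which ties meiotic telomeres to the nuclear envelope, stood at 5.54, 3.76 and 6.31 TPM in mutants and 7.16, 7.06 and 8.76 TPM in controls. Mutant replicate 2 was the lowest library for Dmc1 and for Terb1. The isoform shares most like that of the full-length Dmc1 isoform, among 35634 of other genes, were ENSMUST00000136910 of Gnl2 (r = 0.995), ENSMUST00000165246 of Mrps12 (0.993), ENSMUST00000173920 of Egfl7 (0.992), ENSMUST00000218386 of Pip4k2c (0.990) and ENSMUST00000161204 of Rdh11 (0.989). The Rdh11 isoform made up 59.8% ± 0.58 of its gene in mutants and 72.9% ± 0.87 in controls, and the Mrps12 isoform was listed at 0 in mutants and made up 20.8% ± 1.90 in controls (SD, n = 3 each). The r values are a description over 6 libraries that fall in 2 groups.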

How the data were processed

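HISAT2 and GRCm38 are named per the submitters' processing notes. How isoforms were quantified, and on which annotation, is not given in the sources used here, nor is the Cre line. For each library the authors deposited TPM for genes and for isoforms, and, per the file headers, tables of group average TPM with log2 fold changes. A listed 0 can be a failed estimate. Groups and replicate numbers came from the labels, and each library was taken as 1 animal.

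Genes averaging 1 TPM or more were fitted with limma 3.58.1 in R 4.3.3 (trend, two-sided) on log2(TPM + 1), Benjamini-Hochberg over all genes, threshold 0.05; this scale understates the change of low genes. Isoform shares were fitted without trend as log2 of isoform TPM plus 0.1 over the other isoforms' TPM plus 0.1, for genes of at least 5 TPM and mean shares of 5% to 95%. Intron ends used the same pseudocount, for sums averaging at least 0.5 TPM on both sides and introns of at least 60 nt. The gene and share fits were run on simulated data of independent values, with a smaller pseudocount for the share fit than that used here. The intron end fit was not run on simulated data. An exact permutation test of 3 against 3 cannot give a p under 0.1. Structures and sequences came from GENCODE M21, which matched 141429 of 142647 isoforms. Markers and the strand exchange list were written from general knowledge. Dmc1 and the lists were chosen with earlier results of these data known, and the intron end comparison was added after the isoform structures were seen. Named were, by role, the 3 strand exchange genes with the smallest p-values, 5 key genes whatever their values (1 of them is not reported here), the 3 smallest shares by p, and the 5 most like Dmc1. Alternatives were other scalings, filters, pseudocounts and denominators, a replicate block and each library left out. Python 3.11.15 with pandas 2.3.3 served for the tables and matplotlib 3.10.9 for the plots.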

Additional observations from a re-analysis of the deposited data

How the results depend on the processing

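The Dmc1 isoform differences kept their direction under every alternative run for them. With noncoding isoforms left out of the denominator, the mutant minus control difference was −21.4 points for the share of the full-length isoform and 21.5 points for the exon-skipping one; the intron-start isoform, which has no coding sequence, has no such value. Weighted by transcript length, an alternative chosen after seeing the data, the differences were −25.2, 15.2 and 10.1 points for the full-length, exon-skipping and intron-start isoforms. On the log2 ratio scale, which is another unit, they were −1.76, 1.76 and 1.20. The gene's log2 difference of −0.32 ran from −0.41 to −0.20 with 1 library left out, was −0.42 with median-ratio scaling and −0.45 with protein-coding scaling, and became 0.11 relative to leptotene and zygotene markers; the cause was not tested. The 11 strand exchange genes lower at an unadjusted p under 0.05 became 17 with median-ratio scaling and 18 with protein-coding scaling, and 7 to 12 with 1 library left out, lowest without mutant replicate 2 or control replicate 3; the cause was not tested. The count of strand exchange genes or shares called was 0 under each alternative. With 1 library left out, the share differences ran from −30.8 to −27.5, 10.7 to 12.4 and 15.96 to 18.7 points. With the replicate block the count of 11 became 10 and Dmc1 stayed at −0.32. Deviations of same-numbered libraries correlated at −0.07, 0.03 and 0.08 across genes, so the numbers were not taken to pair animals. Isoform TPM are estimates from short reads that isoforms share, with no depth given, so their counting error is unknown.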
